A study of Mus musculus with 66 samples.

Results

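The genes described here are the nuclear-encoded subunits of the mitochondrial oxidative phosphorylation complexes, followed in mouse hippocampus after injection of brain extract. The rule reads symbols and no measured value, though it was set with earlier results of these data known. It takes the entries whose names begin with Nduf plus a, b, c, s or v and a digit, with Uqcr, with Cox and a digit from 4 to 8, or with Atp5, together with Sdha, Sdhb, Sdhc and Sdhd, leaving out entries marked as pseudogenes in the name. This gave 89 of the 55421 entries in each table, or 88 symbols, since Atp5o is listed in 2 entries, the second at 0. By symbol, 40 belong to complex I, 4 to complex II, 8 to complex III, 19 to complex IV and 18 to complex V. The filter on low values kept 85 members for the younger mice (the 3-month cohort) and 84 for the older (the 12-month cohort). Cox8c, Ndufa11b, Ndufs6b and the second Atp5o entry did not pass in either cohort, and Cox6c2 did not pass in the 12-month cohort.

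RNA sequencing was applied to hippocampal poly(A) RNA of C57BL/6 mice, 3 or 12 months of age. The labels do not say whether that is the age at injection or at collection, but a mouse collected at 3 months could not be 5 months past injection. The ages are therefore read as those at injection. Mice had received extract of control brain (Ctrl) or of Alzheimer's disease brain (AD), and tissue was taken 1, 3 or 5 months post injection (mpi). The title places the work in seeded tauopathy, where injected tau aggregates template the aggregation of the recipient's own tau. All mice were of the same inbred strain, all received a brain extract, and the labels name no uninjected group, no transgene and no sex. The younger mice gave 5 Ctrl and 6 AD libraries for 1 mpi, 5 of each for 3 mpi, and 5 Ctrl with 3 AD for 5 mpi. The older mice gave 5 Ctrl and 6 AD, then 6 of each, then 7 of each. Whether libraries come from separate animals is not stated in the labels, and p-values here describe variation among libraries, which may in part be technical.

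Libraries held 42462638 to 65907005 reads assigned to genes, of which the members took 0.794% to 0.999%. All 8 hippocampal neuron markers checked were above 0 in all 66 libraries, and their summed value ran from 832 to 1250. Markers of choroid plexus, tissue that adjoins the hippocampus, varied far more, with a summed value from 61.3 in a 3-month AD library at 5 mpi to 10400 in a 12-month AD library at 3 mpi. Among the 1 mpi libraries of the 3-month cohort, 4 stood out for Inhba, a gene induced by neuronal activity (Ctrl 1 and 3, AD 3 and 6). By Xist and the Y-linked Ddx3y, given as log2(value + 1), groups held libraries of both sexes in unequal shares. In 3-month Ctrl libraries at 1 mpi the pair was at 9.425 and 0.6256 in replicate 2 but at 0.06085 and 6.643 in replicate 1. In 2 libraries of the 12-month cohort (1 mpi AD 3 and 5 mpi AD 6) both were above 3, with Xist at 4.66 and 3.58. Lower Xist beside Ddx3y was seen in others, such as 12-month Ctrl replicate 1 at 1 mpi (2.118 and 6.453). In bulk tissue, fewer cells of a type and less RNA per cell cannot be told apart.

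Oxidative phosphorylation passes electrons from NADH and succinate through complexes I to IV to oxygen, and complex V uses the resulting proton gradient to make ATP. Most subunits are encoded in the nucleus and imported, while a small core is encoded in mitochondrial DNA, so assembly draws on both genomes. Neurons depend on this pathway to supply ATP for ion pumping and synaptic transmission, and nuclear respiratory factors and ETS family factors are well known regulators of many of these genes.

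Promoter windows are shown because these motifs are the textbook common features of the gene set. Whether they bear on how the members varied between libraries was not tested. RefSeq windows, 250 bases before to 50 after a start on GRCm38.p6, were found for 68 of the 88 symbols. Of these 68 genes, 18 (26.5%) held the NRF1 motif, which is GCGC, any 2 bases and GCGC again and reads alike on both strands, against 7% of the 27025 genes with a window and 12.5% of cytosolic ribosomal protein genes. The ETS family motif CCGGAAG, searched on both strands and so also as CTTCCGG, was in 17 of the 68 (25%), against 9.93% of all genes and 40.6% of ribosomal protein genes. At least 1 of the NRF1 and ETS motifs was in 31 of 68 members (45.6%), against 15.5% of all genes. The ERR family motif TCAAGGTCA was in 2 members, 2.94% against 0.466%, and the CCAAT box CCAAT was in 44.1% against 41.1%. Median GC content was 57.8% in members' windows and 52.8% in all windows. The stretches below lie upstream of the annotated gene, on the strand of the gene, with the NRF1 or ETS motif in capitals. Sdha and Sdhd, of complex II, and Ndufs5, of complex I, hold the NRF1 motif. Sdhd, Uqcrh of complex III and Atp5e of complex V hold the ETS motif. Ndufb3 and Ndufb8 of complex I, to which the results return, hold neither in the stretch shown.
Sdha (chr13:74350281-74350390, minus strand): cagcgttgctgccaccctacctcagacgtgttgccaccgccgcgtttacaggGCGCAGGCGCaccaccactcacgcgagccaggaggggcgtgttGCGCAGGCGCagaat
Sdhd (chr9:50603850-50603999, minus strand): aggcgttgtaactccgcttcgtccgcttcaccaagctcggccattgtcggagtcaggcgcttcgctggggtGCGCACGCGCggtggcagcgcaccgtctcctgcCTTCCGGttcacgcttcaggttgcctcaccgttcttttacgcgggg
Ndufs5 (chr4:123718203-123718336, minus strand): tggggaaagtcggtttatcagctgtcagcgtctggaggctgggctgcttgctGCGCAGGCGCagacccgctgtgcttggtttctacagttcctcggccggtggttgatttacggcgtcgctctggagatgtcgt
Uqcrh (chr4:116075072-116075220, minus strand): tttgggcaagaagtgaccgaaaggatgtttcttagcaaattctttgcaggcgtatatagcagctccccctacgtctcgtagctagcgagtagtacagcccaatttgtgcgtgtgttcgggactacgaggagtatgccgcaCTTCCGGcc
Atp5e (chr2:174464106-174464251, minus strand): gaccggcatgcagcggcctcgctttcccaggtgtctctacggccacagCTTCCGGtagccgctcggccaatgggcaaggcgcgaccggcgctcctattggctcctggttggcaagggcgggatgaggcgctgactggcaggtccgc
Ndufb3 (chr1:58586247-58586383, plus strand): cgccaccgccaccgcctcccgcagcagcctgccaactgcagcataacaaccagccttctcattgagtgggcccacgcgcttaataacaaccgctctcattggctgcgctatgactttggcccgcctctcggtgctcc
Ndufb8 (chr19:44555443-44555592, minus strand): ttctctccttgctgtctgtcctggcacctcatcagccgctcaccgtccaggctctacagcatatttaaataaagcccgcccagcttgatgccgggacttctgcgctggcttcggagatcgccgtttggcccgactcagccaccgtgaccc

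Levels below are the deposited values, which are CPM scaled by 1 factor per library, and levels of different genes are compared only per kilobase of transcript. In the 3-month cohort the median level per kb was highest for complex V at 160, followed by complex III at 119, complex IV at 106, complex II at 92.6 and complex I at 68.5. The 12-month cohort gave 158, 114, 113, 95.4 and 61.8, so complexes III and IV were close in both. The highest member of each complex in the 3-month cohort, per kb, was Atp5b, the catalytic beta subunit of ATP synthase (562 in the 12-month cohort), Cox4i1 at 457, Uqcrh, the hinge protein of complex III, at 364, Ndufa4 at 319 and Sdha, the flavoprotein of succinate dehydrogenase, at 163. Ndufa4 carries a complex I symbol but is now known as a subunit of complex IV. Members are short: the median transcript was 0.645 kb, against 2.53 kb over 15498 protein-coding genes that passed the filter.

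The isoforms of complex IV separated into an abundant form and forms at a low level. Per kb in the 3-month cohort, Cox4i1 was at 457 and its paralog Cox4i2 at 0.973. Cox6a1 was at 190 and the muscle form Cox6a2 at 3.44, and Cox6b1 was at 384 and the testis form Cox6b2 at 7.61. Cox8a was at 280 and the muscle form Cox8b at 2.94, while Cox8c had no reads in any library. Cox7a2 was at 131, Cox7a2l at 106 and the muscle form Cox7a1 at 2.26, with Cox7b at 106 and Cox7b2 at 0.329. The 3 genes for the same c-ring subunit of ATP synthase were all expressed, Atp5g3 at 204, Atp5g1 at 154 and Atp5g2 at 87.2 per kb. Ndufb4c, Ndufs6b, Ndufa11b and Cox6c2 are annotated as processed pseudogenes.

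Between libraries the complexes moved together. After subtracting group means, the mean log2 level of complex I correlated with that of complex V at r = 0.945 and with that of complex III at r = 0.941 over 66 libraries, and the weakest pair was complex II with complex IV at r = 0.593. Among 84 members the median correlation of a member with the mean of the rest was 0.683, and 67 were above 0.5. The lowest was Ndufb2, an accessory subunit of complex I, at -0.0904, and other low values belonged to scarce members such as Ndufb4c (0.0314) and Cox8b (0.0374) and to the abundant Uqcrc2 (0.232). Outside the members, the 3 genes most like their mean over the 66 libraries, of 19526 genes, were Slc25a4 (r = 0.844), the inner-membrane ADP/ATP carrier, Prelid1 (r = 0.844), a lipid transfer protein of mitochondria, and Clta (r = 0.839), a clathrin light chain. These points share depth and library preparation. The members' mean also followed that of 84 cytosolic ribosomal protein genes, at r = 0.719 over 29 libraries of the 3-month cohort and r = 0.865 over 37 of the 12-month cohort after subtracting group means. Without that subtraction the values were 0.818 and 0.866. Around group means, the most variable members with a mean value of at least 10, by the SD averaged over both cohorts, were Cox8a, Atp5k and Ndufb9 (0.174, 0.17 and 0.162 log2 units), and the least variable were Sdha, Ndufs1 and Atp5c1 (0.0475, 0.0575 and 0.0584).

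**Figure D1:**
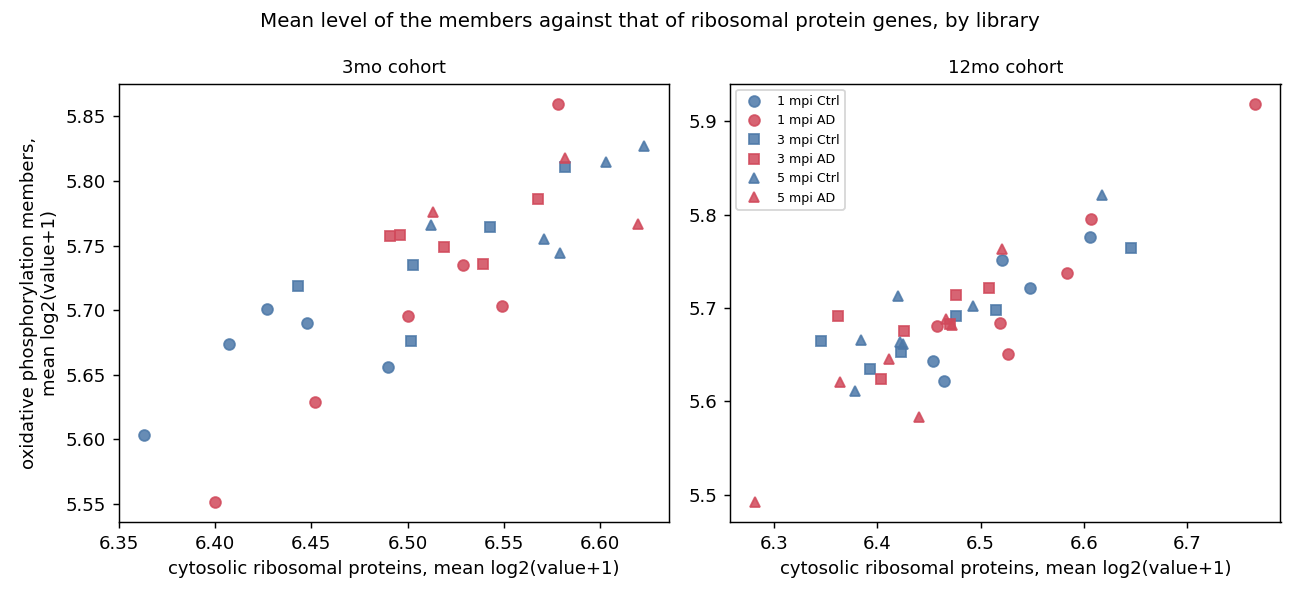
Mean log2(value + 1) of the members (vertical axis) against that of cytosolic ribosomal protein genes (horizontal axis), with 1 point per library, shaped by time and coloured by extract. The points rise together in both cohorts, with r = 0.818 over 29 libraries and r = 0.866 over 37, group means not subtracted.

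The mean level of all members spanned a narrow range over the 12 groups. As a mean log2(value + 1) it went from 5.64 ± 0.0861 (SD, n = 7) in 12-month AD mice at 5 mpi to 5.79 ± 0.027 (SD, n = 3) in 3-month AD mice at 5 mpi. In 3-month Ctrl libraries it was 5.67 ± 0.0384 at 1 mpi, 5.74 ± 0.0505 at 3 mpi and 5.78 ± 0.0371 at 5 mpi (SD, n = 5 each), and the 1 mpi and 5 mpi libraries did not overlap. In 12-month Ctrl libraries it was 5.70, 5.69 and 5.69 at the 3 times, within the spread of each group. Complex I in 3-month Ctrl libraries went from 1 to 5 mpi from 5.30 ± 0.0378 to 5.44 ± 0.0447 (SD, n = 5 each), while complex II went from 6.99 ± 0.0568 to 7.03 ± 0.0293, with overlapping libraries.

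**Figure D2:**
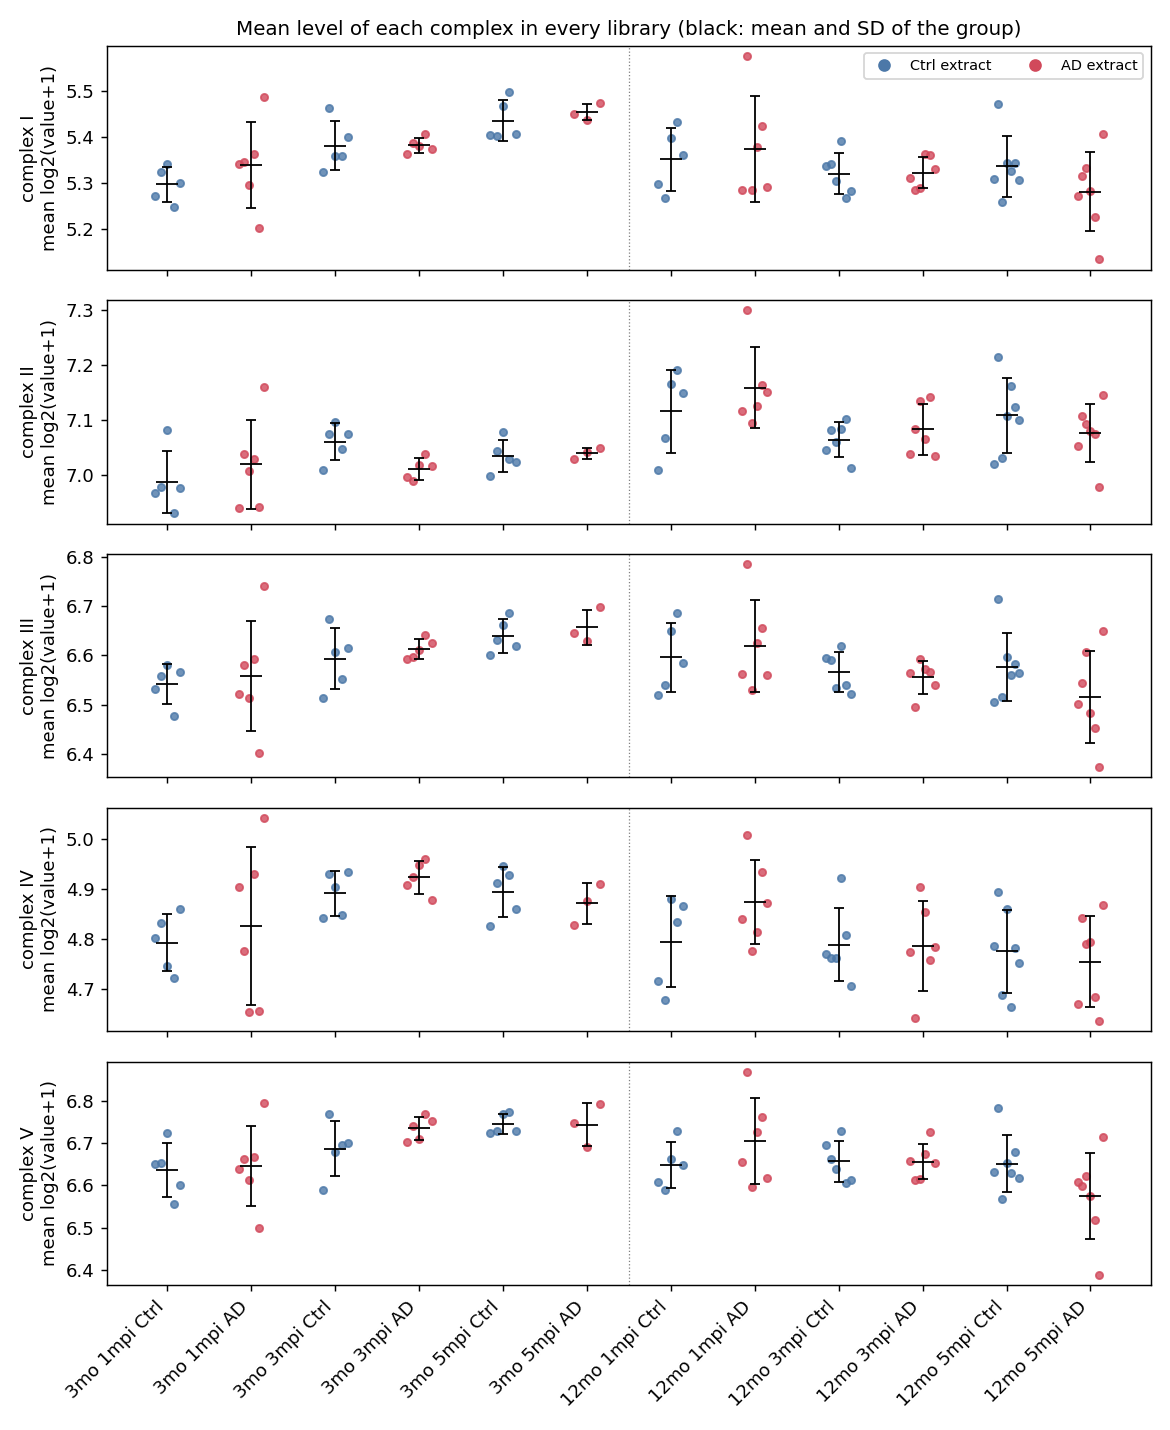
Mean log2(value + 1) of each complex in every library of the 12 groups, with black marks for the group mean and SD. In the 3-month cohort complex I lies between 5.247 and 5.34 in Ctrl libraries at 1 mpi and between 5.401 and 5.498 at 5 mpi, and in the 12-month cohort the groups overlap.

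No member passed the test between AD and Ctrl extract at any time in either cohort. The question was whether the Alzheimer's disease extract altered these genes. In the 3-month cohort limma called 0 of 85 members for the mean over times and at 1, 3 and 5 mpi, with 2, 2, 17 and 1 members at an unadjusted p under 0.05. Of all 19976 genes tested, 0% were called in each of these, and 790, 1006, 910 and 922 had an unadjusted p under 0.05. In the 12-month cohort limma called 0 of 84 for the mean over times (0.00996% of all genes called), at 1 mpi (0.00498%), at 3 mpi (0%) and at 5 mpi (0.0548%), with 4, 7, 0 and 16 members at an unadjusted p under 0.05. Of all 20084 genes, 3075, 2427, 796 and 1705 were under that p. In these 8 comparisons edgeR's quasi-likelihood test called 0 members, and DESeq2 called 1, as higher, in the mean over times of the 12-month cohort. Leaving out any single library gave 0 calls with limma. At 5 mpi in the 12-month cohort the median 95% interval of a member's difference was 0.115 log2 units to either side. There 69 of 84 intervals lay within 0.3 log2 units of 0. In the 3-month cohort at 5 mpi the median was 0.132 to either side, with 80 of 85 within that limit. The limit is wider than each change called over time in the 3-month cohort, so an interval within it need not exclude a change of that size.

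The members nearest to the threshold are given as values. At 3 mpi in the 3-month cohort Uqcrh was at 138, 149, 132, 142 and 137 in Ctrl libraries and at 151, 156, 154, 160 and 163 in AD libraries. Each AD library was above each Ctrl library, yet the difference of 0.16 log2 units (SE 0.0432) had an adjusted p of 0.865 by limma. Atp5k, a small subunit at the dimer interface of ATP synthase, likewise did not overlap, with means of 27.2 in AD and 21.3 in Ctrl libraries (0.34 log2 units, limma adjusted p = 0.93). In that comparison 7 of 85 members had groups that did not overlap, against 2.07% of all genes.

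Over the mean of times in the 3-month cohort the smallest p belonged to Uqcrh (0.06 log2 units), Cox7c (0.08) and the ATP synthase subunit Atp5j2 (0.05), each with a limma adjusted p of 1. Of 85 members 56 were above 0, with a median of 0.02. At 1 mpi the nearest were the complex I subunits Ndufs5, Ndufs6 and Ndufb7, at 0.12 log2 units each and a limma adjusted p of 0.916, and their groups overlapped. At 5 mpi they were Cox7a1 (-0.24), Atp5j2 (0.10) and Cox8b (-0.38), with a limma adjusted p of 1, and both Cox genes lie below a value of 1.

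In the 12-month cohort the mean over times was nearest to the threshold for Atp5l (means of 83.4 in AD and 77.3 in Ctrl libraries, 0.11 log2 units, limma adjusted p = 0.13), Cox8b (0.38, adjusted p = 0.177) and Ndufa13 (0.12, adjusted p = 0.192). At 1 mpi Cox8b (0.78, limma adjusted p = 0.228), Uqcrb (0.13, adjusted p = 0.258) and Atp5mpl (0.17, adjusted p = 0.336) came first, all with overlapping groups. At 3 mpi it was Uqcrh, whose AD and Ctrl libraries did not overlap, with means of 136 and 145 (-0.10, limma adjusted p = 0.995). That was the 1 member of 84 apart, against 0.179% of all genes.

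At 5 mpi in the 12-month cohort 16 of 84 members were higher in AD, with a median of -0.05 log2 units against 0.000309 over all genes. Without AD replicate 6 at 5 mpi, a library with both Xist and Ddx3y, 23 members were higher and the median was -0.02. Atp5l, a membrane subunit of ATP synthase, ranged over 76.4, 81.8 and 95.9 (lowest, median and highest) in AD and 68.2, 72.7 and 79.4 in Ctrl libraries, so the groups overlapped (0.19 log2 units, limma adjusted p = 0.196). Atp5md, another small subunit, differed the other way (-0.20, limma adjusted p = 0.315). Mitochondrially encoded subunits were higher in AD in 11 of 13 cases there, with a median of 0.07, and 0 passed by limma, 2 at an unadjusted p under 0.05.

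The change of the AD difference from 1 to 5 mpi called 0 of 85 members in the 3-month cohort (0% of all genes) and 0 of 84 in the 12-month cohort (0.00498%), by limma, edgeR and DESeq2. At an unadjusted p under 0.05 the limma counts were 0 and 15. In the 12-month cohort the nearest members were Uqcrb (-0.25 log2 units, limma adjusted p = 0.307), Atp5mpl (-0.36, adjusted p = 0.373) and Ndufs5 (-0.25, adjusted p = 0.576), and 21 of 84 members were above 0. The AD difference in the 12-month cohort minus that in the 3-month cohort, from reads of both tables scaled together, called 0 of 85 members by limma, edgeR and DESeq2 (0% of all genes), with 5 at an unadjusted p under 0.05 by limma. Ndufa12 had the smallest p there, at -0.15 log2 units and a limma adjusted p of 0.866.

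In 3-month mice given control extract, 11 of 38 tested complex I genes were higher at 5 mpi than at 1 mpi. In each comparison of times here, the later mice were also older, and no uninjected group is named. Time since injection, age and the occasion of collection therefore cannot be told apart. Of 85 members, 15 rose and 0 fell (17.6%), against 9.19% of all genes called either way with 5.13% called higher and 4.06% lower. Of the 15, 11 were among 38 tested subunits of complex I, 3 among 18 of complex IV and 1 among 17 of complex V, while 0 of 4 in complex II and 0 of 8 in complex III passed by limma, with 1 and 2 at an unadjusted p under 0.05. The complex I genes included core subunits of the electron-transferring arm, Ndufs3, Ndufs8 and Ndufv1, and accessory subunits, Ndufa5, Ndufa6, Ndufb3, Ndufb4, Ndufb8, Ndufs5 and Ndufs6. The others were Cox5b, Cox6c and the supercomplex factor Cox7a2l of complex IV, and Atp5g2 of complex V. Across all 85 members 80 were above 0, with a median of 0.12 log2 units against 0.00395 over all genes. Cytosolic ribosomal protein genes rose in 41 of 84 cases over the same interval. With their mean level as a covariate, added after seeing the data, limma called 0 members, with a median of -0.000614. That covariate itself changed between the compared groups, so this fit cannot separate the members' rise from that of the ribosomal protein genes.

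Ndufb8, a membrane-arm subunit (chr19:44548572-44555440, minus strand, GRCm38), was at 39.1, 37.4, 42.5, 37.4 and 39.3 in Ctrl libraries at 1 mpi and at 46.2, 44.7, 43.3, 51.5 and 47.2 at 5 mpi. All 5 later libraries were above all 5 earlier ones, a rise of 0.25 log2 units (SE 0.0556, limma adjusted p = 0.00825). The annotation places the gene model Gm20538 over it, and reads of overlapping genes may be split by the counting.

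Ndufa5 (chr6:24518666-24528013, minus strand), an accessory subunit of the peripheral arm, was at 38.9, 39.8, 37.1, 38.2 and 40.8 at 1 mpi and at 50.04, 46.2, 47.0, 49.6 and 45.3 at 5 mpi. It had the largest rise of the 15, 0.28 log2 units (SE 0.054, limma adjusted p = 0.00285), with no overlap. Cox5b (chr1:36691449-36693681, plus strand), a matrix-side subunit of cytochrome c oxidase, was at 94.9, 102, 97.8, 92.1 and 104 at 1 mpi and at 114, 110, 115, 124 and 115 at 5 mpi. Again the groups were apart, with a rise of 0.23 (SE 0.0511, limma adjusted p = 0.00665). Ndufb4 rose by 0.28 (adjusted p = 0.00587) and Ndufs5 by 0.22 (adjusted p = 0.0134), both by limma. None of the 15 had overlapping groups, and 23 of 85 members were apart in all, against 7.76% of genes.

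At the intermediate time, 1 member passed in Ctrl libraries of the 3-month cohort, against 1.8% of all genes called, 1.1% higher and 0.701% lower. Ndufs3, the iron-sulfur protein subunit next to the quinone site (chr2:90894634-90904827, minus strand, overlapping Kbtbd4), was at 69.3, 75.8, 73.9, 73.4 and 74.1 at 1 mpi, at 82.7, 86.2, 83.4, 81.8 and 80.3 at 3 mpi and at 78.5, 83.3, 82.3, 83.6 and 83.8 at 5 mpi. Both later groups lay above the first, and the rise by 3 mpi was 0.18 log2 units (SE 0.0336, limma adjusted p = 0.0105). Leaving out single libraries gave 1 to 4 calls for this comparison, with 4 when AD replicate 2 at 5 mpi was left out of the shared fit. Counts of 2 or 3 followed from leaving out Ctrl replicate 2 or 5 or AD replicate 1, 2, 3 or 6 at 1 mpi, or Ctrl replicate 1 at 5 mpi.

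The same interval in AD libraries of the 3-month cohort gave 7 members that rose and 0 that fell, against 5.69% of all genes called with 1.99% called higher and 3.7% lower. They were Ndufa6 (0.25 log2 units, limma adjusted p = 0.0432), Ndufb8 (0.24, 0.0252), Cox5b (0.23, 0.0199), Ndufa5 (0.23, 0.0269), Ndufs8 (0.21, 0.0175), Ndufb3 (0.17, 0.0448) and Ndufs3 (0.13, 0.0358), each figure being the fold change and then the adjusted p. Cox5b was at 89.6, 102 and 116 (lowest, median and highest) in AD libraries at 1 mpi and at 121, 118 and 119 at 5 mpi, so each later library was above each earlier one. For Ndufs8, which carries iron-sulfur clusters, the values were 46.9, 48.7 and 55.4 at 1 mpi and 56.4, 59.5 and 56.3 at 5 mpi, again without overlap. Ndufa5 and Ndufb3 overlapped between the times.

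The Ctrl and AD intervals share no library, but both use the spread per gene that the fit takes over all 6 groups. Calls in the 2 intervals are therefore not independent, and the overlap over all genes called was not counted. All 7 members called in AD libraries (100%) were among the 15 called in Ctrl libraries, of which they are 46.7%, and the difference of the changes was the comparison above with 0 calls. The AD count rests on few libraries, since only 3 were available at 5 mpi: it was 0 without AD replicate 1 at 5 mpi, 1 without replicate 3 at 5 mpi, 4 without replicate 1 or 4 at 1 mpi and 17 without replicate 6 at 1 mpi. The Ctrl count was 9 without Ctrl replicate 1 at 1 mpi or replicate 3 or 4 at 5 mpi. From 1 to 3 mpi in AD libraries limma called 0 of 85 members, with 24 at an unadjusted p under 0.05 and 0.586% of all genes called (0.365% lower), while edgeR called 0 and DESeq2 1. Cox6c was nearest, with means of 154 and 139 and a limma adjusted p of 0.0774, and 1 member was called without AD replicate 2 at 5 mpi.

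**Figure D3:**
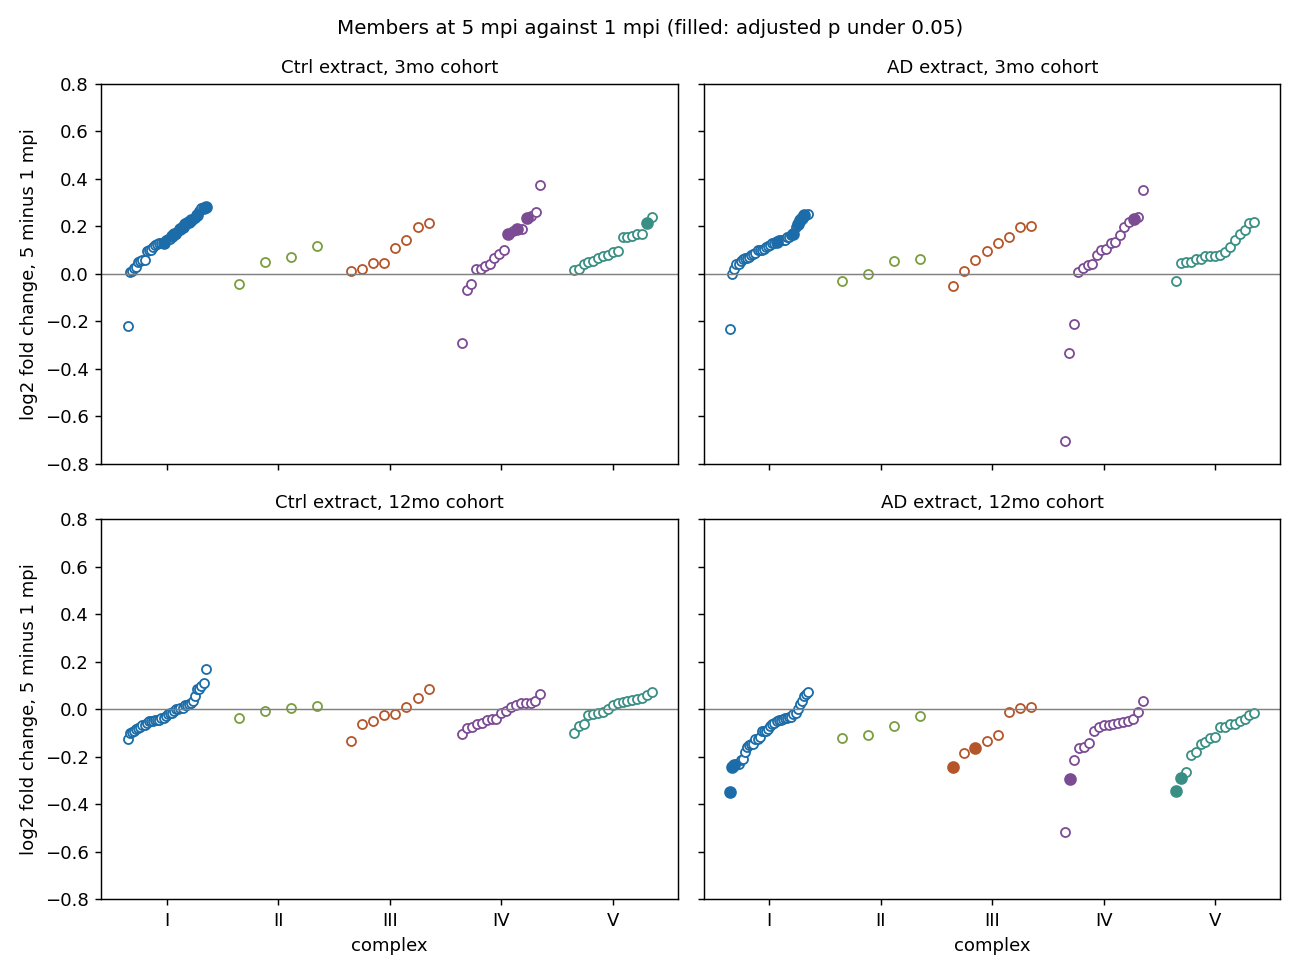
Log2 fold change of each member at 5 against 1 mpi, by complex, for each extract (columns) and cohort (rows), with filled points for an adjusted p under 0.05 by limma. Filled points lie above 0 in the 3-month cohort (15 for Ctrl, 7 for AD) and below 0 in 12-month AD libraries (8), and there are 0 in 12-month Ctrl libraries.

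Other genes of the pathway were read in the same 3-month Ctrl comparison. Of 51 assembly factors 8 rose and 0 fell, among them Surf1, needed to assemble complex IV (0.22 log2 units, limma adjusted p = 0.00175), Uqcc2 of complex III (0.23, adjusted p = 0.0126) and Sdhaf1 of complex II (0.27, adjusted p = 0.0185). Of the 13 mitochondrially encoded subunits 1 rose, mt-Atp8 (0.48, limma adjusted p = 0.0311). Of 18 genes of the tricarboxylic acid cycle 1 rose, Idh3g, and of 17 glycolysis genes 0 passed by limma, 3 at an unadjusted p under 0.05. Among 17 regulators of mitochondrial genes Gabpa, the ETS family factor of the motif above, fell by 0.24 (limma adjusted p = 0.0156) and 0 rose. In AD libraries of that cohort Surf1 and mt-Atp8 rose too (limma adjusted p = 0.00943 and 0.0479), as did 2 genes of the tricarboxylic acid cycle, Idh3g and Idh3b, and Gabpa fell by 0.23 (limma adjusted p = 0.0426).

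Lists outside the pathway moved over the same interval. In 3-month Ctrl libraries 41 of 84 cytosolic ribosomal protein genes rose and 1 fell, with a median of 0.17, and 16 of 77 mitochondrial ribosomal protein genes rose. In AD libraries the cytosolic list gave 1 of 84 higher, and with its mean as a covariate 4 members were called, Ndufs8 and Cox5b higher and Cox7a1 and Cox8b lower. Protein-coding genes with transcripts under 1 kb that are no members had a median of 0.06 in Ctrl libraries, and those of 4 kb or more -0.03. The called members had a median transcript of 680 bases in Ctrl and in AD libraries, slightly longer than that of the other members.

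The summed level of 11 choroid plexus markers in Ctrl libraries was 2400, 5090 and 6130 (lowest, median and highest) at 1 mpi and 99.8, 1550 and 4460 at 5 mpi, with a median fold change of -1.51 and 0 called by limma, 8 at an unadjusted p under 0.05. In AD libraries it was 181, 5260 and 8020 at 1 mpi and 61.3, 190 and 838 at 5 mpi, and 11 of 11 fell. None of these markers was at 0 in any library. With their mean as a covariate limma called 29 members in Ctrl and 0 in AD libraries. Oligodendrocyte markers fell in 3 of 8 cases in each, and microglia markers in 1 of 6 in Ctrl and 3 of 6 in AD libraries. Without the 4 libraries of high Inhba, a setting added after seeing the data, the AD count was 21, with 20 higher and 1 lower.

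In the 12-month cohort members passed over time in AD libraries, and there they were lower. From 1 to 5 mpi 8 of 84 members fell and 0 rose by limma, against 0.762% of all genes called and 0.602% called lower. They were spread over complexes: Ndufa1, Ndufb3 and Ndufs5 of complex I, Uqcrh and Uqcrb of complex III, Cox7c of complex IV, and Atp5e and Atp5mpl of complex V. All are small accessory or supernumerary subunits except Atp5e, the epsilon subunit of the ATP synthase central stalk, and their median transcript was 478 bases, against 680 for the other members. In all 9 of 84 members were above 0, with a median of -0.08 against 0.00107 over all genes.

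Ndufa1, an X-linked membrane subunit needed for complex I assembly (chrX:37187588-37191163, minus strand), was at 23.7, 26.6 and 31.6 (lowest, median and highest) in AD libraries of 1 mpi, 18.7, 21.3 and 24.1 in those of 3 mpi, and 18.6, 20.5 and 25.7 in those of 5 mpi. Only the edges of the groups overlapped, and it fell by 0.32 log2 units to 3 mpi (SE 0.0714, limma adjusted p = 0.022) and by 0.35 to 5 mpi (SE 0.0688, limma adjusted p = 0.0117). Ctrl libraries of that cohort ran from 20.5 to 27.0 over the 3 times. Uqcrh (chr4:116066965-116075071, minus strand), whose symbol 2 pseudogenes share, was at 147, 154 and 187 in AD libraries of 1 mpi, 130, 136 and 139 in those of 3 mpi, and 115, 137 and 148 in those of 5 mpi. The 3 mpi libraries were all below those of 1 mpi, while at 5 mpi the highest library reached into the 1 mpi range. It fell by 0.22 (SE 0.0506, limma adjusted p = 0.022) and by 0.24 (SE 0.0487, limma adjusted p = 0.0117).

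Ndufb3 (chr1:58586384-58595964, plus strand), a membrane-arm subunit, was at 62.7, 67.2 and 74.4 in AD libraries of 1 mpi, and at 50.9, 57.4 and 60.7 in those of 5 mpi. It was the 1 called member whose groups did not overlap, and it fell by 0.24 (SE 0.0529, limma adjusted p = 0.0178). Of all 84 members 2 were apart, against 0.642% of genes. Atp5e was at 31.1, 35.2 and 39.8 at 1 mpi and 23.6, 27.4 and 35.01 at 5 mpi, with overlap, and fell by 0.34 (SE 0.0823, limma adjusted p = 0.0318). Cox7c fell by 0.30 (adjusted p = 0.0401), Atp5mpl by 0.29 (adjusted p = 0.0217), Ndufs5 by 0.24 (adjusted p = 0.0275) and Uqcrb by 0.16 (adjusted p = 0.0394), by limma.

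By 3 mpi Uqcrh and Ndufa1 were the 2 members of 84 that had fallen, against 0.832% of all genes called and 0.593% called lower. That count was 0 without AD replicate 5 at 1 mpi or AD replicate 1 at 3 mpi, and 1 without AD replicate 2 at 3 mpi. With the ribosomal protein covariate, added after seeing the data, neither was called (Uqcrh at -0.11 and Ndufa1 at -0.21 log2 units, limma adjusted p = 0.125 and 0.118), and other members, Uqcrc1 and Uqcrfs1 of complex III, were called higher. In 12-month Ctrl libraries limma called 0 of 84 members from 1 to 3 mpi (0.0199% of all genes) and 0 from 1 to 5 mpi (0.0249%), with 2 and 1 at an unadjusted p under 0.05, and edgeR and DESeq2 called 0. The difference of the change between AD and Ctrl libraries was the comparison above, with 0 calls, so the AD change is not shown to differ from that in Ctrl libraries.

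**Figure D4:**
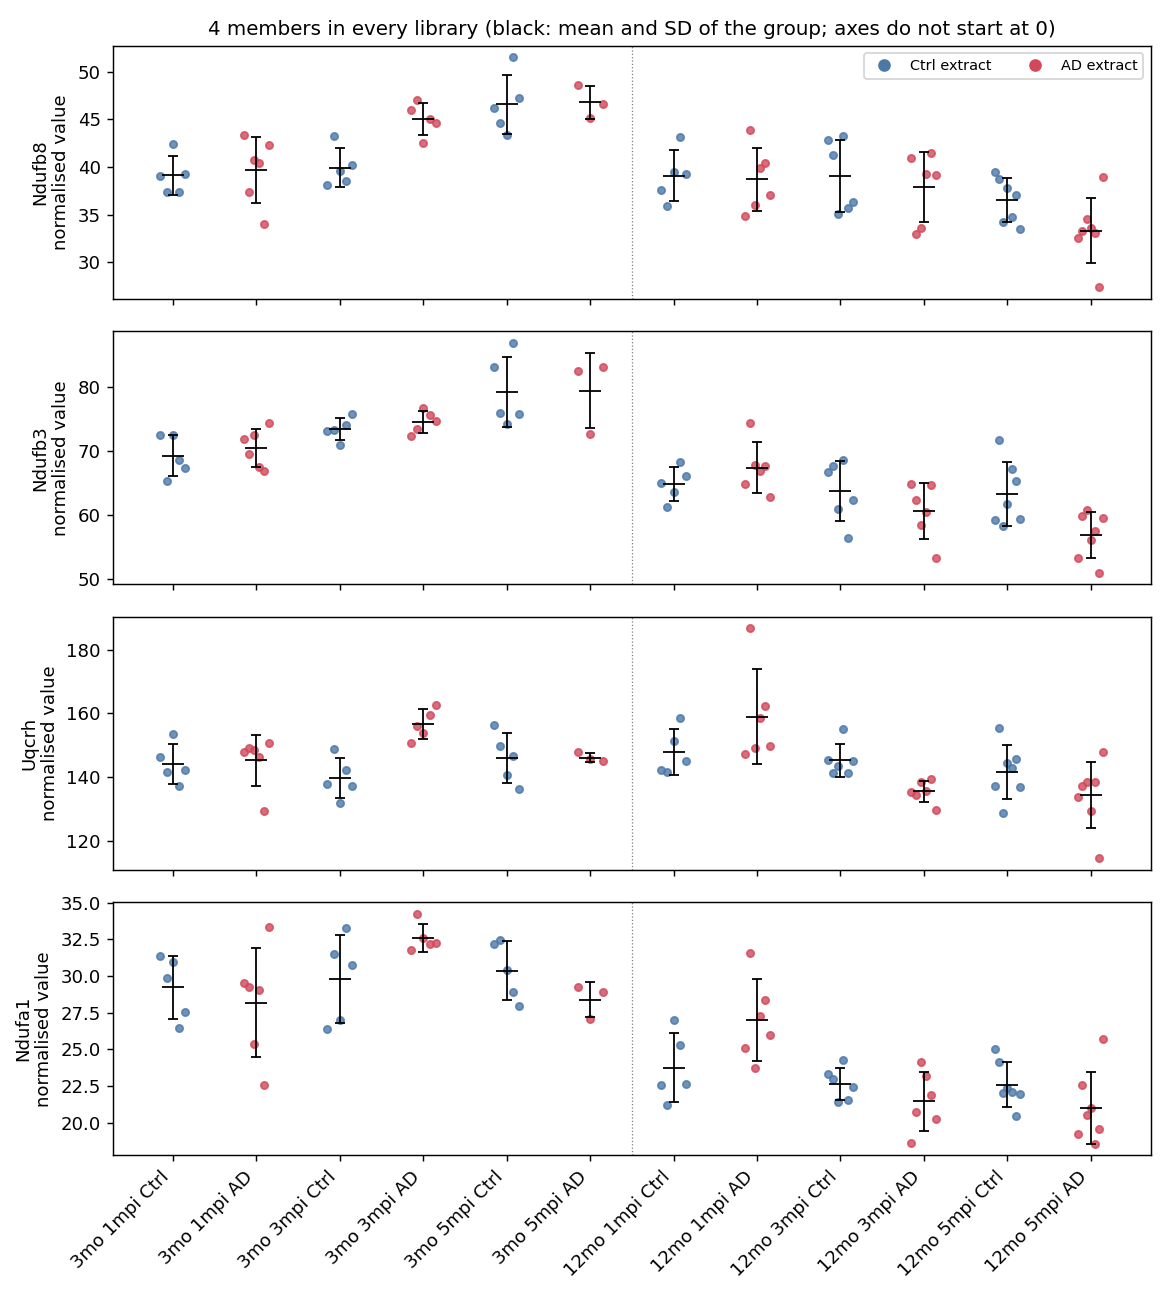
Normalised value of Ndufb8, Ndufb3, Uqcrh and Ndufa1 in every library of the 12 groups, with black marks for the group mean and SD and axes that do not start at 0. Ndufb8 rises from 37.4 to 42.5 at 1 mpi to 43.3 to 51.5 at 5 mpi in 3-month Ctrl libraries, and Ndufb3 falls from 62.7 to 74.4 at 1 mpi to 50.9 to 60.7 at 5 mpi in 12-month AD libraries.

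Of the fall in 12-month AD libraries to 5 mpi, 3 calls were left without AD replicate 2, 4 or 5 at 1 mpi or AD replicate 1 or 6 at 5 mpi, and 5 without replicate 5 at 5 mpi. AD replicate 2 at 1 mpi was the highest library for Uqcrh, Ndufa1 and Ndufb3, and AD replicate 6 at 5 mpi, a library with both Xist and Ddx3y, was the lowest for Uqcrh, Ndufb3 and Atp5e. Without that library and the other of its kind, 3 members were called, a setting added after seeing the data. Among the pathway's other genes, 0 of 51 assembly factors and 0 of 13 mitochondrially encoded subunits passed by limma (5 and 5 at an unadjusted p under 0.05), and the latter had a median of 0.13, with 10 of 13 above 0. Of the 17 subunits and carriers kept as a list beside the members, 2 fell, Cycs, which is cytochrome c (-0.17, limma adjusted p = 0.03), and Atp5mpl, which is itself a member.

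Over that interval 17 of 84 cytosolic ribosomal protein genes fell and 0 rose, with a median of -0.14. With their mean as a covariate limma called 0 members, with a median of 0.02. Here too the covariate itself changed over the interval, so the fit cannot separate the members' fall from that of the ribosomal protein genes. Transcripts under 1 kb of genes that are no members had a median of -0.06, and those of 4 kb or more 0.04. Choroid plexus markers summed to 1240, 4620 and 8320 at 1 mpi and 187, 2060 and 7370 at 5 mpi, with a median fold change of -1.46 and 0 of 11 called by limma, 0 at an unadjusted p under 0.05. With those markers as a covariate limma called 12 members, all lower. The 8 hippocampal neuron markers were all above 0, with 0 called by limma (1 at an unadjusted p under 0.05), and 1 of 6 microglia markers fell.

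The 2 cohorts were compared through reads of both tables scaled together. In Ctrl libraries, averaged over times, 14 of 85 members were higher and 22 lower in the 12-month cohort (42.4%). Of all genes 20.7% were called, 10% higher and 10.7% lower. Age and the table, with whatever separates the cohorts in handling, cannot be told apart. Higher and lower counts were 5 and 10 in complex I, 1 and 0 in complex II and 2 and 3 in complex III. They were 2 and 3 in complex IV and 4 and 6 in complex V. Called or not, 11 of 38 members of complex I, 3 of 4 of complex II and 4 of 8 of complex III were above 0. The same held for 5 of 18 of complex IV and 6 of 17 of complex V. Median changes, complex I to V, were -0.059, 0.0289, -0.0224, -0.071 and -0.0271 log2 units. Of all 85 members 29 were above 0, with a median of -0.0396 against -0.00878 over all genes. The 14 that were higher had a median transcript of 964 bases and the 21 of the 22 lower ones with a length 545, while genes under 1 kb that are no members had a median change of 0.01.

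The 5 largest increases were in Cox5a (67.9 against 58.3, 0.22 log2 units, limma adjusted p = 1.97e-05), Ndufb9 (12.1 against 10.4, 0.21), Ndufv2 (107 against 94.2, 0.18), Uqcrb (73.1 against 64.3, 0.18) and Uqcrc2 (264 against 234, 0.17, limma adjusted p = 1.07e-07). Ndufv2 is a core iron-sulfur subunit of complex I and Uqcrc2 a core protein of complex III. For Uqcrc2, Ctrl libraries had 217 to 250 in the 3-month cohort and 243 to 281 in the 12-month cohort as deposited, overlapping only at the edges. The 5 largest decreases were in Cox8b, Ndufa1 (22.9 against 30.0, -0.37, limma adjusted p = 2.51e-09), Atp5o, the stalk subunit that confers oligomycin sensitivity (6.52 against 8.39, -0.32), Atp5k (-0.26) and Ndufa12 (-0.24). Cox8b, the muscle isoform, was at 0.467 against 0.977 (-0.44, limma adjusted p = 0.0133), a low level at which log2(value + 1) understates the change. Atp5o matches 2 genes of the annotation, and other gene models overlap Ndufb9 and Uqcrb, so their reads may be split by the counting.

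Beyond these, the other higher members were Sdhd, Ndufs4, Ndufs1, Ndufb2, Cox7b, Atp5j, Atp5pb, Atp5c1 and Atp5h, at 0.09 to 0.17 log2 units. The other lower members included Cox7c (-0.24). Among them Uqcr10, Uqcr11 and Uqcrq are small subunits of complex III, and Ndufb3 (-0.22) and Atp5e (-0.23) also fell over time in 12-month AD libraries.

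Of the 4 subunits of complex II only Sdhd, a membrane anchor, passed (86.6 against 76.7, 0.17 log2 units, limma adjusted p = 2.05e-06), while Sdha (0.04), Sdhc (0.02) and Sdhb (-0.00598) had limma adjusted p from 0.176 to 0.918. Sdhd was at 68.9 to 80.3 in 3-month Ctrl libraries and 81.5 to 96.2 in 12-month Ctrl libraries as deposited, with no overlap. Mitochondrially encoded subunits differed more: 5 of 13 were lower and 1 higher, led by mt-Co3 (-0.70, limma adjusted p = 1.2e-14), while mt-Nd4 was higher (0.26). Of 51 assembly factors 9 were higher and 4 lower, with Coa6 of complex IV at 0.35 (limma adjusted p = 2.33e-07). Choroid plexus markers were lower in 11 of 11 cases (median -1.49), and with them as a covariate limma called 29 members, 11 higher and 18 lower. With a replicate block, though the numbers were not taken to pair the libraries, the split was 11 higher and 31 lower. With the ribosomal protein covariate it was 20 and 20.

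Motif content was also read for the members that passed over time. Of the 13 genes with a window among those that rose in the 3-month cohort, 6 (46.2%) held the NRF1 motif and 2 (15.4%) the ETS motif. Over all 68 members with a window the shares were 26.5% and 25%, and over all genes with a window 7% and 9.93%. Of the 6 with a window among those that fell in 12-month AD libraries, 1 held the NRF1 motif, Ndufs5, and 2 the ETS motif, Uqcrh and Atp5e, as printed above. These small counts are descriptions of letters in a window. Ndufb3, which rose in the 3-month cohort and fell in the 12-month AD libraries, had neither. Between the 15 members that rose in 3-month Ctrl libraries and the 8 that fell in 12-month AD libraries, 2 were shared, Ndufb3 and Ndufs5. They are 13.3% of the first and 25% of the second. Whether unrelated lists of members would share as many was not tested.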

How the data were processed

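The authors deposited 1 table per cohort with a normalised signal per gene. Within a library they are CPM divided by 1 factor. Expressed in units of a single read, 100% of them came out whole (tolerance 0.01 reads). Factors ran from 0.957 to 1.04. STAR, Picard, edgeR and GRCm38 are named in the submitters' processing notes. Their versions, the annotation, the counting rule and strand use are not stated in the labels. RNA was poly(A)-selected and libraries were randomly primed, per the labels' protocols.

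On log2(deposited signal + 1), limma-trend was run within a cohort with a mean for each of its 6 groups, after edgeR's filterByExpr on the recovered reads, for 19976 genes (3-month) and 20084 (12-month). A fold change on that scale understates the change of low genes. Cohorts were compared on recovered reads scaled together by TMM (trimmed mean of M values), over 12 groups and 21297 genes. P-values were adjusted by Benjamini-Hochberg over all genes tested, with calls made below an adjusted p of 0.05. Every adjusted p is from limma. The scripted fit was tested on simulated data. No pair of libraries within a group agreed within sampling noise (155 pairs, smallest chi-square per degree of freedom 5.18). Of 31 same-numbered Ctrl and AD pairs, 12 had deviations correlated over 0.1, so the numbers were not taken to pair libraries.

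The members and lists were chosen with earlier results of these data known. By rule, the text names all called members where 10 or fewer, otherwise the 5 highest and 5 lowest changes, the 3 smallest p where none was called, the highest and lowest per kb in each complex, isoform pairs, complex II, the 3 most and least variable members, up to 4 examples per list and the 3 genes most like the members' mean. Most other called members are also listed by name, and 1 is not reported here. Gene positions and transcript lengths are from GENCODE vM21 on GRCm38, and promoter windows from RefSeq. Ndufab1, Cyc1, Cycs and Atpif1 fall outside the naming rule, and reads of Uqcrh, Atp5l, Atp5k and Atp5c1 may be shared with pseudogenes. Other protein-coding models overlap several members besides Ndufb8 and Ndufs3, among them Ndufb2, Ndufb9 and Uqcrb. Alternatives were edgeR's quasi-likelihood test and DESeq2 on recovered reads, other scaling, pseudocount, filter and groups in the fit, covariates, a replicate block and each library left out. The covariates were the level of choroid plexus markers, of Xist or of cytosolic ribosomal protein genes. A covariate that itself differs between the compared groups can take up part of their difference. R 4.3.3, limma 3.58.1, edgeR 4.0.16 and DESeq2 1.42.0 were used.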

Additional observations from a re-analysis of the deposited data

Results flagged for a closer look

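In 159 sets of values, 66 means of complexes or all members and 93 single members within a group, the highest or lowest library was compared with the rest of its group by Dixon's criterion. Chance marks about 1 in 20 groups, and 9 were marked. The mean log2 level of complex I was 5.47 in 12-month Ctrl replicate 2 at 5 mpi, with the others at 5.257 to 5.342, and that of complex III was 6.715 in the same library, with the others at 6.506 to 6.596. Ndufs5 was also highest in that library, at 53.37 against 44.26 to 45.79. The mean of complex II was 7.3 in 12-month AD replicate 2 at 1 mpi, with the others at 7.095 to 7.163. In 12-month Ctrl replicate 4 at 3 mpi Atp5e was 38.92 against 28.94 to 31.53 in the others, and Uqcrh was 155.2 against 141.2 to 145.4. In the 3-month cohort Cox5b was 114.9 in AD replicate 2 at 3 mpi against 109.2 to 110.2, and Ndufa6 was 35.86 in Ctrl replicate 4 at 5 mpi against 28.98 to 30. Ndufs3 was lowest in Ctrl replicate 1 at 5 mpi, at 78.48 against 82.32 to 83.8.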

How the results depend on the processing

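Of 219 counts of called members under other settings, 196 were within 1.5 times of the count reported, and 6 medians moved beyond the spread between libraries. The 196 include each reported count of 0 that stayed at 0, which holds for most comparisons. That share therefore does not describe how stable the counts above 0 are, and these are given below. For named members 302 results kept their direction and side of the threshold, 71 no longer passed and none reversed. In the 3-month cohort the Ctrl count from 1 to 3 mpi, reported as 1, was 4 with DESeq2 and 0 with upper-quartile scaling, with only the compared groups in the fit or without the 4 libraries of high Inhba. The Ctrl count from 1 to 5 mpi, reported as 15, was 8 with upper-quartile scaling, 29 with the choroid plexus covariate and 0 with the ribosomal protein covariate. The AD count, reported as 7, was 0 with only the compared groups or the choroid plexus covariate, 4 with the ribosomal protein covariate and 21 without the libraries of high Inhba, and from 1 to 3 mpi, reported as 0, it was 1 with DESeq2. In the 12-month cohort the mean AD difference gave 1 with DESeq2. The AD count from 1 to 3 mpi, reported as 2, was 4 with DESeq2, 1 with upper-quartile scaling and 0 with only the compared groups. That to 5 mpi, reported as 8, was 1 with upper-quartile scaling, 5 with no filter, 0 with only the compared groups or the ribosomal protein covariate and 3 without the 2 libraries with Xist and Ddx3y. The cause of these shifts was not tested.

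Leaving out 1 library at a time gave 1 to 4, 9 to 22, 0 to 1 and 0 to 17 in the 3-month cohort (Ctrl to 3 and 5 mpi, AD to 3 and 5 mpi), 0 to 2 and 3 to 8 in 12-month AD libraries (to 3 and 5 mpi) and 35 to 38 between cohorts. Same-numbered libraries correlated over 0.1 in 12 of 31 pairs (r from -0.39 to 0.635), so pairing by number was not assumed. Such a count cannot exclude pairing. With the replicate block the 3-month counts were 3 (Ctrl to 3 mpi), 22 (Ctrl to 5 mpi) and 17 (AD to 5 mpi), and the count between cohorts was 42. Members at low levels, such as Cox8b, Cox7b2 and Ndufb4c, rest on few reads.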
